A study of Homo sapiens with 12 samples.

Results

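The 46 genes described here encode the proteins that license replication origins, unwind DNA, copy it and supply its nucleotides. They were chosen by name, as genes known for these roles, and a gene's probe sets were those that carry its symbol, or an older form of it, and no other. All 46 could be tested, among 16883 genes in all, from 912 kept probe sets of the 1023 that name them. Gene levels are log2 values averaged over a gene's kept probe sets, and probe sets were kept whose 12-array mean exceeded 2.04, the median of the table.

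DNA is copied in an ordered way. The origin recognition complex, CDC6 and CDT1 load the MCM2 to MCM7 ring on DNA before S phase. CDC45 and the GINS complex then turn that ring into an active helicase. Primase and DNA polymerase alpha lay down primers, RPA covers single-stranded DNA, RFC loads the PCNA clamp, and polymerases delta and epsilon extend the strands. FEN1 and LIG1 join the lagging strand fragments, while ribonucleotide reductase, thymidylate synthase and dUTPase keep deoxynucleotides in supply. Many of these genes are known targets of E2F factors, and their messenger RNAs rise as cycling cells near S phase.

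The cells were U2OS, a human osteosarcoma line, carrying K294A under doxycycline control, which is known from work on this line to be a capping enzyme mutant without activity. The 12 arrays form 4 groups of 3: induced cells (doxycycline, 1 ug/ml for 24 h) with their RNA treated in vitro with Xrn1, induced cells with untreated RNA, uninduced cells with Xrn1-treated RNA, and uninduced cells with untreated RNA. All groups share the line, its transgene, the cytoplasmic extract and the ribosomal RNA removal. Xrn1 is an exonuclease that degrades RNA from a 5′ monophosphate end and is blocked by a cap. The Xrn1 comparisons therefore ask which RNAs lose signal when uncapped ends are digested. The induction comparisons ask whether levels differ between induced and uninduced cells, and the interaction asks whether the Xrn1 change differs between them. All induced cells had doxycycline and no uninduced cells did, so effects of K294A and of doxycycline itself cannot be told apart.

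The labels speak of biological replicates without naming separate cultures, so the spread behind each p is that between these samples, which may be technical. As deposited, limma gave every gene the same SD of 0.418, pooled over all genes. A gene's p as deposited therefore does not rest on the spread of its own arrays. In bulk RNA, fewer cells of one kind and less RNA per cell cannot be told apart. On the arrays of untreated uninduced RNA, the bone and mesenchyme genes had mean log2 values of 7.79 (VIM), 8.85 (COL1A1), 8.63 (SPARC), 7.22 (FN1), 3.59 (RUNX2), 3.05 (COL1A2), 2.66 (BGLAP) and 2.29 (ALPL). The 10 tested markers of other cell types had values between 2.06 (PTPRC) and 4.29 (CD3E). Values of different probe sets are not on one scale, so no order between these genes is drawn. RNGTT, the capping enzyme gene, averaged 4.00 ± 0.67 in induced and 3.79 ± 0.89 in uninduced untreated RNA (SD, n = 3 each), a change of 0.21 as deposited (SE 0.34, limma adjusted p = 0.685) and of -0.16 block-normalised, a set of values explained next (adjusted p = 0.78). Neither passed, and whether its probe sets read the transgene was not tested.

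The deposited table holds a step that bears on every value below. Its rows fall into 4 runs, rows 1 to 650745, 650746 to 1399819, 1399820 to 1406425 and 1406426 to 1411399. The medians of single arrays jump at each boundary, and jump back at the next, so rows 1 to 650745 and 1399820 to 1406425 are called block A and the others block B. Of 2823 windows of 500 rows, 2822 showed the pattern of their own run. The array of induced untreated replicate 2 had a median of 2.66 in block A and 1.45 in block B. Uninduced Xrn1 replicate 2 had 2.83 and 1.50, in the same order, while uninduced untreated replicate 2 had 1.55 and 2.63, the opposite order. The 3 arrays of induced Xrn1 differed between the blocks by little, with 2.07 to 2.11 in block A and 2.17 to 2.21 in block B.

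**Figure D1:**
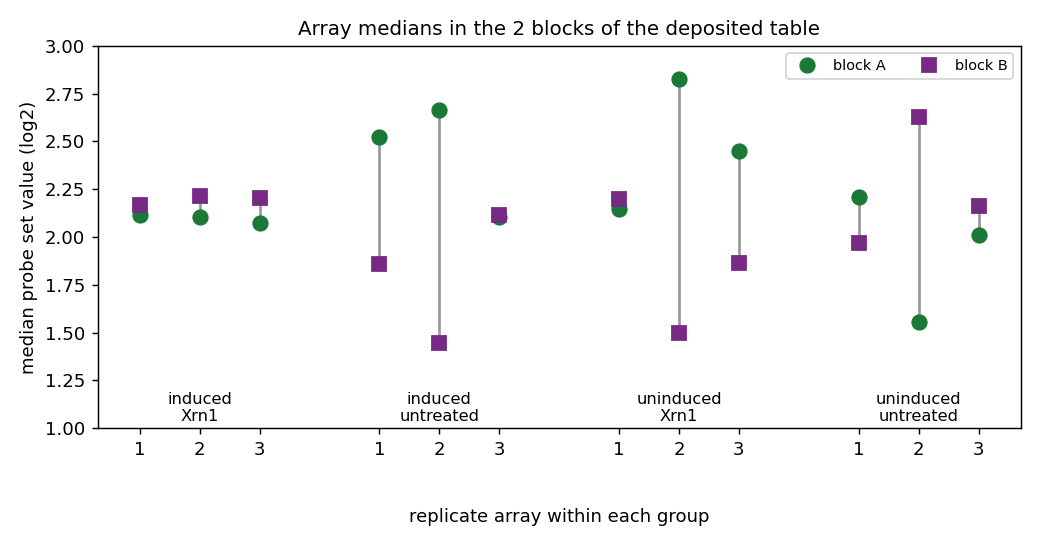
Median log2 probe set value of each of the 12 arrays in block A (circles) and block B (squares) of the deposited table, by group and replicate. The gap between both blocks is small on the 3 induced Xrn1 arrays and wide, with opposite signs, on uninduced Xrn1 replicate 2 (2.83 and 1.50) and uninduced untreated replicate 2 (1.55 and 2.63).

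Of the 46 genes, 18 have all kept probe sets in block A, 24 in block B, and 4 (ORC3, ORC6, FEN1 and RRM2) in both. Each result is therefore given as deposited and again after quantile normalisation of the 12 arrays within each block, an alternative added after the step had been seen. These second values are called block-normalised. The median SD of the 46 genes within a group was 0.57 in induced untreated RNA as deposited and 0.37 after block normalisation. In uninduced Xrn1 RNA it was 0.30 and 0.18. The cause of the step was not tested.

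Treatment with Xrn1 lowered the signal of most replication genes. In induced cells, 25 of the 46 genes fell and 2 rose as deposited (limma, Benjamini-Hochberg adjusted p under 0.05 over all genes), against 17.8% of all genes that fell and 21.6% that rose. In uninduced cells, 38 fell and 0 rose, against backgrounds of 31.8% and 7.24%, and 0 rose also at an unadjusted p under 0.05. After block normalisation, 31 fell and 2 rose in induced cells, with 25.4% and 24.0% of all genes called, and 39 fell and 0 rose in uninduced cells, with 37.3% and 16.1%. With each gene's own spread in place of one shared across genes, 6 fell and 0 rose in induced cells as deposited. In uninduced cells 29 fell and 0 rose. Block-normalised, 29 fell and 1 rose in induced and 38 fell and 0 rose in uninduced cells. The share of all genes called with own spread was not counted. The median change was -0.92 in induced and -1.41 in uninduced cells as deposited, with 0.10 and -0.27 for all genes. Block-normalised, it was -0.85 and -1.28, with 0.12 and -0.11 for all genes. The values of the 3 Xrn1 and 3 untreated arrays did not overlap, with Xrn1 lower, for 25 genes in induced cells (22.6% of all genes) and 34 in uninduced cells (33.6%) as deposited, and for 30 (25.9%) and 40 (40.3%) block-normalised. They did not overlap, with Xrn1 higher, for 2 (28.3% of all genes) and 0 (11.2%) as deposited and for 3 (32.2%) and 0 (21.7%) block-normalised. As deposited, 14 genes fell in induced cells without induced untreated replicate 2 and 16 without induced Xrn1 replicate 2, and 27 to 33 did block-normalised whichever array was left out. The count of rises in induced cells was 5 without induced untreated replicate 3 and 0 without any other 1 of the 6 induced arrays. With an array left out, the share of all genes called was not counted. RMA sets the arrays to a common distribution, so these are changes relative to other RNAs on the same array and not losses of a measured amount.

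Another scaling, cyclic loess between arrays, moved the split of calls over all genes. In induced cells 26 of the 46 genes then fell and 3 rose, against 21.9% and 23.4% of all genes. In uninduced cells 23 fell and 1 rose, against 21.9% and 21.9%, and the median of the 46 was -0.67 (all genes 0.07). Loess after block normalisation gave 30 lower and 3 higher in induced cells (27.3% and 27.6% of all genes) and 28 lower and 2 higher in uninduced cells (30.2% and 32.2%).

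A group of 24 genes fell in both Xrn1 comparisons and with both sets of values. It holds CDC6 and ORC2 to ORC5, MCM3, MCM4, MCM6, MCM10 and GINS1, both primase subunits and both tested subunits of polymerase alpha, PCNA and all 5 RFC subunits, RPA1, RRM1, RRM2 and TYMS. Within this group MCM3, POLA1, RPA1 and RRM2 turned sign in an Xrn1 comparison under another normalisation or summary, as given further on. With block-normalised values 31 genes fell in both comparisons, 8 in uninduced cells alone, 0 in induced cells alone and 7 in neither. The 7 were POLD1, POLE3, RPA2, RPA3, CDT1, LIG1 and DUT. That 8 genes passed in uninduced cells alone does not show a difference between the cells, which is tested further on.

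**Figure D2:**
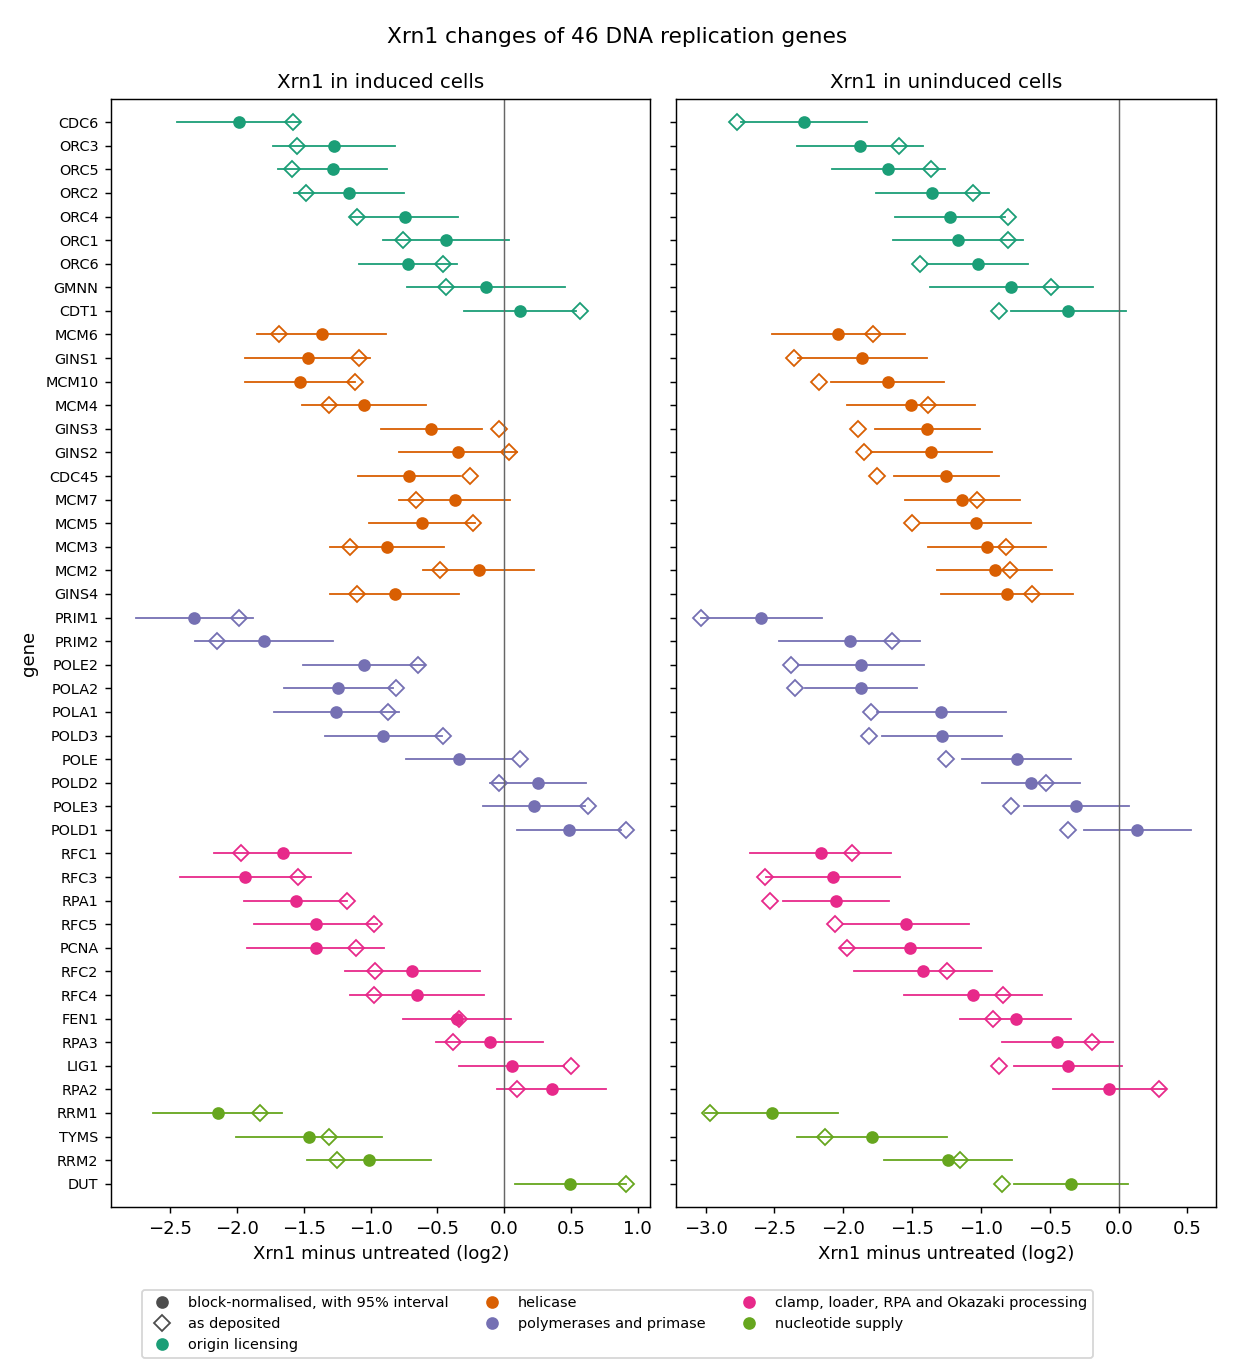
Change in log2 signal with Xrn1 for the 46 genes, in induced cells (left) and uninduced cells (right), coloured by role and ordered within a role by the block-normalised change in uninduced cells. Filled circles are block-normalised values with their 95% interval and open diamonds the values as deposited. Among the block-normalised values PRIM1 and RRM1 lie farthest below 0 in both panels, and POLD1 and DUT lie above 0 in induced cells.

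Stretches of promoter are shown for 5 genes that share an upstream sequence feature and stand on both sides of the block-normalised Xrn1 calls. They are taken from RefSeq (GRCh38.p14), hold 100 bases each around a match within the 250 bases before the gene start, and are written 5′ to 3′ on the gene's strand. Capitals mark the letters of an E2F motif, searched on both strands as TTTCCCGC, TTTCGCGC, TTTGCCGC or TTTGGCGC. MCM6, PCNA and RFC3 fell in both Xrn1 comparisons with both sets of values. CDT1 and LIG1 fell in neither after block normalisation, although both fell in uninduced cells as deposited. MCM6 lies at chr2:135876476-135876575 on the minus strand, with 2 overlapping matches on opposite strands. PCNA lies at chr20:5126628-5126727 on the minus strand, RFC3 at chr13:33818048-33818147 on the plus strand, CDT1 at chr16:88803689-88803788 on the plus strand and LIG1 at chr19:48170405-48170504 on the minus strand.
MCM6: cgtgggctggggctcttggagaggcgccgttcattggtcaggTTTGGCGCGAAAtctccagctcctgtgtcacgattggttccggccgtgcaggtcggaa
PCNA: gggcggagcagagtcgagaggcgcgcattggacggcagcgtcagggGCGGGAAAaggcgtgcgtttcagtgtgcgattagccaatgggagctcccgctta
RFC3: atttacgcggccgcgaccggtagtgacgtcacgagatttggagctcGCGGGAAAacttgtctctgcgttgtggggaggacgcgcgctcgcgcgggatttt
CDT1: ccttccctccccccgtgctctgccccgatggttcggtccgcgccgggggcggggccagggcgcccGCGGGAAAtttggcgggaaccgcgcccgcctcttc
LIG1: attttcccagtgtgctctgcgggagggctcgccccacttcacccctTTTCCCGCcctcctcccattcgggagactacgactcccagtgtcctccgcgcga

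The motif was common among the replication genes. RefSeq windows from 250 bases before to 50 after the start were at hand for 40 of the 46, and 20 of these held it, against 5.69% of the 13269 tested genes with a window and 3.31% of all 35116 windows. It stood in 12 of 27 genes that fell in both comparisons after block normalisation, in 5 of 8 that fell in 1 and in 3 of 5 that fell in neither. These are counts of letters, with no test, and a match is not a measured binding site.

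The licensing genes were mostly lower with Xrn1. Of 9, 5 fell in induced and 8 in uninduced cells as deposited, and 6 and 8 after block normalisation. The shares of all genes were 17.8% and 31.8% as deposited and 25.4% and 37.3% block-normalised. CDC6, the ATPase that joins the origin recognition complex to load MCM proteins, had 3.03, 2.57 and 2.99 with Xrn1 and 3.61, 4.84 and 4.89 without it in induced cells. In uninduced cells it had 2.40, 2.35 and 2.75 with Xrn1, against 5.33, 5.25 and 5.23 in untreated RNA. Every Xrn1 array was below every untreated array of its own cells. The fall was 1.58 in induced cells (SE 0.34, limma adjusted p = 6.55e-05, 2.99-fold) and 2.77 in uninduced cells (adjusted p = 2.88e-14, 6.82-fold). Block-normalised, the changes lay closer together, at -1.99 and -2.29 (SE 0.22 each).

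ORC5, a subunit of the origin recognition complex in block A, had the smallest p of the group in induced cells. Its levels there were 3.04, 2.51 and 2.61 with Xrn1, against 4.01, 4.70 and 4.22 without, a fall of 1.59 (limma adjusted p = 5.82e-05), with no overlap. In uninduced cells they were 2.62, 3.26 and 2.73 with Xrn1 and 4.95, 3.29 and 4.46 without. The low untreated value, 3.29, is on replicate 2, the array whose block A median was 1.55, and it became 4.08 after block normalisation. The change in uninduced cells was -1.36 as deposited and -1.67 block-normalised. ORC2, ORC3 and ORC4 fell in both comparisons too. ORC1, the large ATPase subunit, fell in uninduced cells alone after block normalisation (-0.43 in induced, -1.16 in uninduced cells).

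CDT1, which brings the MCM ring to origins, and GMNN, its inhibitor geminin, did not pass in induced cells with either set of values. GMNN varied widely between untreated arrays, with 2.83, 4.44 and 3.68 in induced and 4.46, 2.68 and 4.13 in uninduced cells. With Xrn1 it had 3.63, 2.94 and 3.09 in induced and 3.15, 3.53 and 3.12 in uninduced cells, so the groups overlapped in both. Its changes were -0.43 and -0.49 as deposited, neither past the threshold, and it fell in uninduced cells after block normalisation (-0.78, adjusted p = 0.0259). CDT1 had a change of 0.56 in induced and -0.87 in uninduced cells as deposited (adjusted p = 0.181 and 0.0314). Block-normalised these were 0.12 and -0.36 and neither passed.

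The helicase genes fell together in uninduced cells. There, 10 of 12 passed as deposited and all 12 after block normalisation, from -0.81 (GINS4) to -2.03 (MCM6), although the deposited values of MCM3 and MCM7 turned to 0.12 and 0.18 under cyclic loess between arrays. In induced cells 6 fell as deposited and 9 after block normalisation. Of all genes, 31.8% fell in uninduced and 17.8% in induced cells as deposited, and 37.3% and 25.4% block-normalised. MCM6, a subunit of the ring, had 3.35, 2.85 and 3.08 with Xrn1 and 4.09, 5.51 and 4.74 without it in induced cells. In uninduced cells it had 2.87, 3.45 and 3.07 with Xrn1, against 5.60, 3.94 and 5.20. The groups did not overlap, and the falls were 1.69 and 1.79 (SE 0.34, limma adjusted p = 1.81e-05 and 1.56e-06). The SD of the untreated arrays of MCM6 in uninduced cells was 0.87 as deposited and 0.24 block-normalised.

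The changes of the ring subunits covered a wide range. Block-normalised, MCM6 (-1.37 in induced, -2.03 in uninduced cells) and MCM4 (-1.05 and -1.51) changed most, and MCM3 (-0.88 and -0.96) and MCM5 (-0.61 and -1.03) also fell in both. MCM2 (-0.19 and -0.90) and MCM7 (-0.37 and -1.14) fell in uninduced cells alone. MCM10, which binds the helicase and is needed to start unwinding, fell by 1.53 in induced and by 1.68 in uninduced cells. All of these messengers encode parts of one complex, apart from MCM10.

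GINS1 had the smallest p among helicase genes in uninduced cells. Its 3 untreated arrays there agreed closely (5.47, 5.41 and 5.25) and lay far above the Xrn1 arrays (3.08, 2.65 and 3.34). In induced cells it had 3.93, 3.14 and 3.16 with Xrn1, against 3.83, 4.73 and 4.92, and the groups overlapped. GINS2 and GINS3, other subunits of the same complex, fell in uninduced cells by 1.85 and 1.90 as deposited. In induced cells their deposited changes were 0.04 and -0.04. GINS3 had 3.39, 3.28 and 3.28 with Xrn1, against 3.02, 2.97 and 4.07 in induced cells, where 1 untreated array lay above and 2 lay below all Xrn1 arrays. In uninduced cells it had 2.79, 2.04 and 2.77, against 4.56, 4.34 and 4.37, with no overlap. Block-normalised, GINS3 fell in both (-0.55 and -1.39) and GINS2 in uninduced cells alone (-0.34 and -1.36). GINS4, in block A, had the largest p of the group in uninduced cells as deposited (-0.63, adjusted p = 0.133) and fell in both after block normalisation (-0.82 and -0.81). Its untreated arrays there (4.82, 3.31 and 4.66) include the same low replicate 2 as ORC5 and MCM6, below 2 of the Xrn1 arrays (3.18, 4.14 and 3.59). CDC45, the partner of GINS, fell by 0.71 and 1.25 with block-normalised values.

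After block normalisation the primase subunits had the largest falls among the 10 polymerase and primase genes in both comparisons. PRIM1, its catalytic subunit, had 3.50, 2.99 and 3.59 with Xrn1, against 4.94, 5.73 and 5.36 without it in induced cells. In uninduced cells it had 3.02, 2.74 and 3.22 with Xrn1, against 5.82, 6.28 and 5.98. All 3 Xrn1 arrays were more than 1 log2 unit below all 3 untreated arrays in both kinds of cell. The falls were 1.99 (limma adjusted p = 2.93e-07, 3.96-fold) and 3.03 (adjusted p = 6.78e-17, 8.17-fold), and block-normalised they were 2.32 and 2.60. PRIM2, the large regulatory subunit, had 2.67, 2.02 and 2.20 against 3.88, 5.09 and 4.36 in induced cells, a fall of 2.15 (adjusted p = 2.41e-08). In uninduced cells PRIM2 had 2.26, 3.23 and 2.52 with Xrn1 and 5.14, 3.19 and 4.62 without, and block-normalised it fell by 1.80 and 1.95.

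The polymerases divided. Among all 10 genes of this role, 4 fell and 1 rose in induced cells and 7 fell in uninduced cells as deposited. After block normalisation the counts were 6, 1 and 8. The shares of all genes, in that order, were 17.8%, 21.6% and 31.8% as deposited and 25.4%, 24.0% and 37.3% block-normalised. POLA1 and POLA2, of polymerase alpha, fell in both comparisons, by 1.26 and 1.24 in induced and by 1.29 and 1.87 in uninduced cells with block-normalised values. POLE2 and POLD3, accessory subunits, also fell in both (-1.05 and -0.90 in induced, -1.87 and -1.28 in uninduced cells). The catalytic subunit POLE fell in uninduced cells alone (-0.34 and -0.74). POLD2, an accessory subunit of polymerase delta, had levels of 5.45, 5.24 and 5.61 with Xrn1, against 5.15, 5.75 and 5.52 in induced cells, and of 4.80, 5.28 and 4.94 against 5.96, 4.90 and 5.74 in uninduced cells. The groups overlapped in both, and the changes were -0.04 in induced and -0.53 in uninduced cells as deposited and 0.25 and -0.64 block-normalised, of which the last passed. Under cyclic loess the value of POLD2 in uninduced cells turned to 0.82.

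POLD1, the catalytic subunit of polymerase delta, did not fall past the threshold in either comparison. It had 4.81, 4.54 and 4.71 with Xrn1 and 3.30, 3.62 and 4.42 without it in induced cells, with no overlap. Its uninduced levels were 4.34, 3.91 and 4.24 with Xrn1, against 4.62, 4.35 and 4.62, a narrow gap without overlap. It rose by 0.91 in induced cells (limma adjusted p = 0.0246) and had a change of -0.37 in uninduced cells (adjusted p = 0.418). Block-normalised, the values were 0.48 (adjusted p = 0.0379) and 0.14 (adjusted p = 0.55). A rise on these arrays is relative to the other RNAs, and 24.0% of all genes rose in induced cells after block normalisation.

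**Figure D3:**
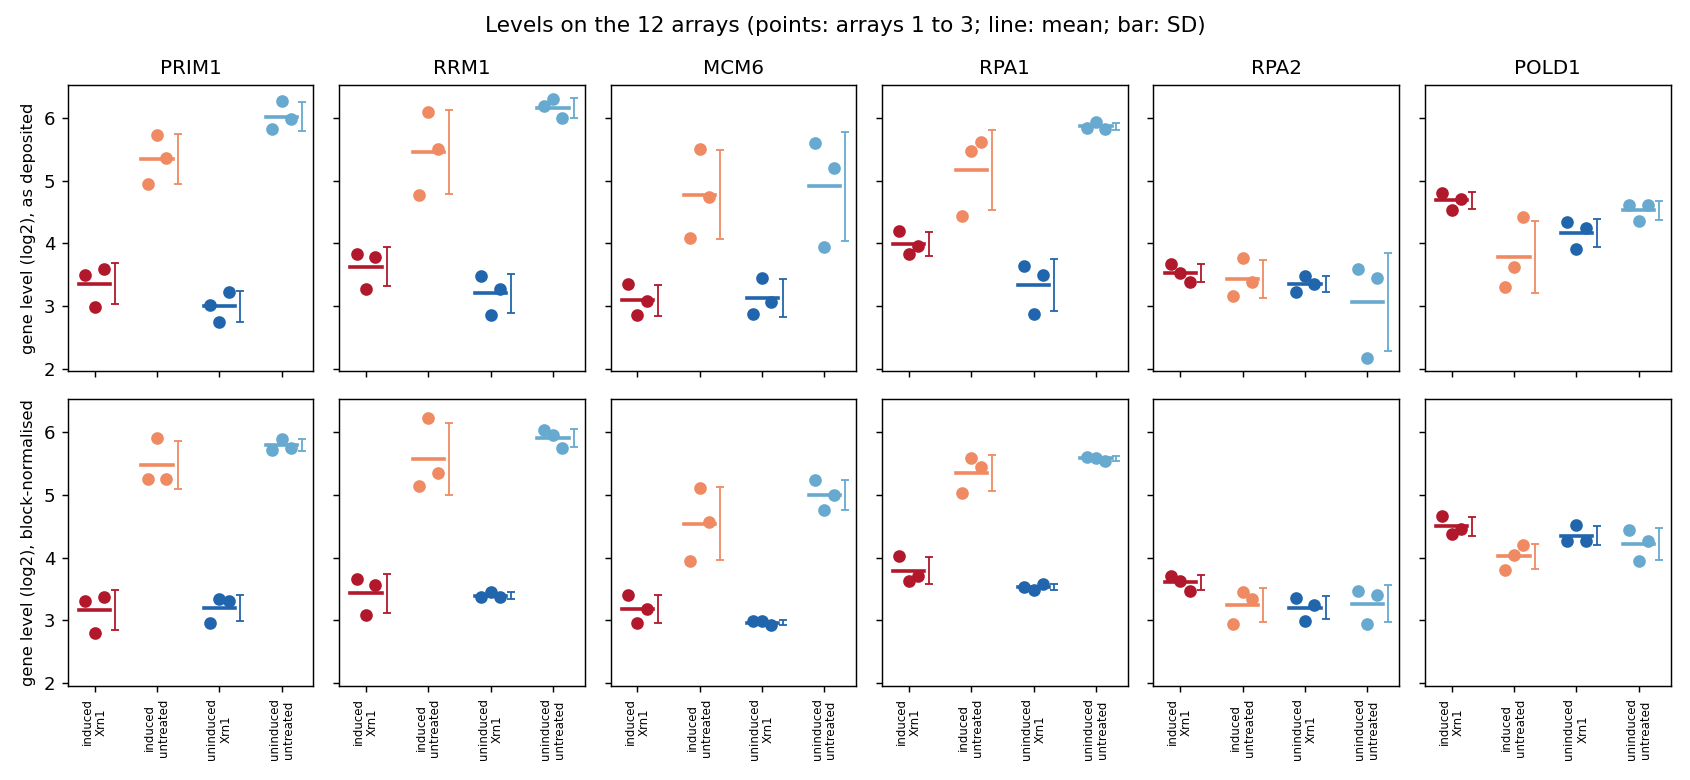
Log2 gene levels on all 12 arrays for 6 genes, as deposited (top row) and block-normalised (bottom row). Points are arrays, lines group means and bars SDs (n = 3). PRIM1, RRM1, MCM6 and RPA1 sit lower with Xrn1 in both kinds of cell, while RPA2 and POLD1 do not. The outlying low untreated array of MCM6 and RPA2 in uninduced cells moves toward its group in the bottom row. For RPA2 it stays below the others there (2.94, against 3.47 and 3.40).

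The clamp loader fell as a whole. All 5 RFC subunits passed in both comparisons with both sets of values, and the block-normalised changes ran from -0.65 (RFC4) to -1.94 (RFC3) in induced and from -1.05 (RFC4) to -2.16 (RFC1) in uninduced cells. RFC1, the large subunit, had 3.32, 2.83 and 3.06 with Xrn1, against 4.22, 5.55 and 5.34 in induced cells. The values in uninduced cells were 2.83, 3.35 and 3.32, against 5.76, 4.02 and 5.53. RFC3 had the smallest p of this role in uninduced cells, with 2.99, 1.94 and 2.73 with Xrn1 and 5.17, 4.95 and 5.24 without, a fall of 2.57 (limma adjusted p = 1.94e-12). PCNA, the clamp itself, had 4.62, 3.87 and 4.63 against 5.20, 6.05 and 5.20 in induced cells, and 4.19, 3.93 and 4.21 against 6.0, 6.26 and 5.98 in uninduced cells. Its falls were 1.11 and 1.97 as deposited and 1.41 and 1.51 block-normalised.

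The 3 subunits of RPA, which act as one complex on single-stranded DNA, did not all pass. RPA1 fell by 1.18 in induced and by 2.53 in uninduced cells as deposited (limma adjusted p = 0.00355 and 4.14e-12), and by 1.56 and 2.05 block-normalised. RPA2 had 3.66, 3.53 and 3.39 with Xrn1 and 3.15, 3.76 and 3.38 without in induced cells, and 3.23, 3.48 and 3.36 against 3.59, 2.16 and 3.45 in uninduced cells. Its changes of 0.10 and 0.29 did not pass, and block-normalised they were 0.36 (95% interval -0.05 to 0.76) and -0.07 (-0.48 to 0.34). RPA3 had -0.38 and -0.19 as deposited, neither past the threshold. Its levels with Xrn1 were 4.03, 3.71 and 3.84 in induced and 3.77, 4.21 and 3.62 in uninduced cells, against untreated levels of 3.93, 4.76 and 4.04 and of 4.54, 3.26 and 4.38.

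Of the enzymes that finish lagging strand fragments, FEN1, the flap nuclease, fell in uninduced cells alone (-0.36 in induced, -0.75 in uninduced cells, block-normalised), where its deposited value turned to 0.31 under cyclic loess. LIG1, the ligase, had 0.50 and -0.87 as deposited, of which the second passed (limma adjusted p = 0.0314), and 0.06 and -0.37 block-normalised, of which neither did. In the role as a whole, 7 of 11 genes fell in induced cells with either set of values (17.8% and 25.4% of all genes). In uninduced cells 9 fell as deposited and 8 block-normalised (31.8% and 37.3% of all genes).

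Both subunits of ribonucleotide reductase fell in both comparisons, although RRM2 turned to 0.086 in uninduced cells under cyclic loess. RRM1, the large subunit, had 3.84, 3.27 and 3.78 with Xrn1 and 4.76, 6.10 and 5.51 without it in induced cells, and 3.47, 2.86 and 3.27 against 6.19, 6.31 and 6.0 in uninduced cells. No arrays overlapped, and the falls were 1.83 (limma adjusted p = 2.75e-06, 3.55-fold) and 2.96 (adjusted p = 3.18e-16, 7.81-fold). Block-normalised they were 2.14 and 2.52. TYMS, thymidylate synthase, was lower by 1.31 and 2.13 as deposited and by 1.46 and 1.79 block-normalised. TYMS overlaps ENOSF1, an antisense gene, and the strand of the labelled material is not given in the sources used here.

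DUT, dUTPase, was the exception among the nucleotide genes. It had 4.17, 3.89 and 3.76 with Xrn1 and 2.64, 2.90 and 3.55 without it in induced cells, a rise of 0.91 (limma adjusted p = 0.0242). The uninduced cells had 3.32, 3.19 and 3.85 with Xrn1, against 4.35, 4.33 and 4.23, a fall of 0.85 (adjusted p = 0.0364). Block-normalised, the rise was 0.49 (adjusted p = 0.0448) and the change in uninduced cells -0.35, which did not pass (adjusted p = 0.148).

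Probe sets of one gene did not all move alike. Of the 912 kept probe sets of the 46 genes, 226 fell and 29 rose in induced cells as deposited (limma, Benjamini-Hochberg over all 705699 kept probe sets), against 12.4% and 5.84% of the 258175 kept probe sets that carry 1 symbol. In uninduced cells 430 fell and 13 rose, against 24.2% and 3.92%. With block-normalised values the counts were 287 and 28 in induced cells (14.8% and 4.87%) and 453 and 27 in uninduced cells (25.0% and 5.83%).

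RRM2 shows a wide split within a gene. It has 24 kept probe sets, of which 9 fell in induced and 11 in uninduced cells, and 0 rose, with block-normalised values. Their changes ran from -4.80 to 1.71 in induced and from -4.64 to 1.55 in uninduced cells. Over the 3 brightest probe sets RRM2 fell by 3.97 and 3.76 as deposited (limma adjusted p = 6.74e-09 and 2.60e-09), compared with 1.25 and 1.15 over all of its probe sets. Of the 24, 6 are annotated as C2orf48, a name that RefSeq now lists under RRM2, and without them RRM2 fell by 1.76 in induced and 1.75 in uninduced cells.

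The relation between a probe set's mean level and its change had no common sign. Over the probe sets of each gene, the correlation of level with block-normalised change was below 0 in 29 of the 46 genes in induced cells, from -0.81 (FEN1) to 0.56 (GMNN), and in 27 in uninduced cells, from -0.68 (PCNA) to 0.64 (RFC4). The 5 genes described next were chosen after their values were seen. For RRM2 the correlation of level with block-normalised change was -0.65 in induced and -0.59 in uninduced cells. Over the probe sets of RRM1 it was -0.74 and -0.61 (24 probe sets each, all of the same 12 arrays, a description only). For PRIM1 it was -0.76 and -0.59 over 15 probe sets. For POLD1 it was 0.53 and 0.50 over 32. RPA1 had 21 probe sets, of which 16 fell in induced and 18 in uninduced cells block-normalised, while the brightest single probe set rose in uninduced cells (2.26, adjusted p = 0.00168) and had 1.24 in induced cells (adjusted p = 0.0931). Its correlation was 0.33 and 0.55. Over its 3 brightest probe sets RPA1 had changes of 0.31 and -0.13 as deposited, neither past the threshold.

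**Figure D4:**
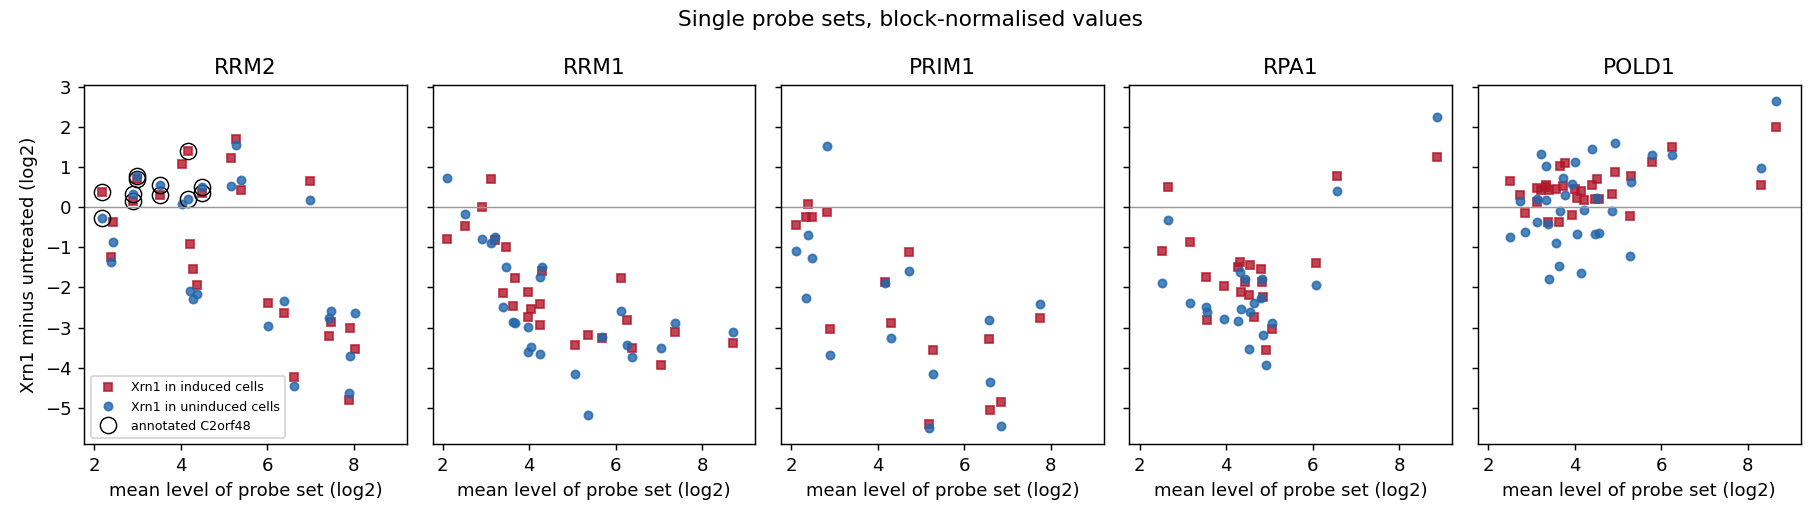
Block-normalised change with Xrn1 of each kept probe set of RRM2, RRM1, PRIM1, RPA1 and POLD1 against its mean log2 level over the 12 arrays, in induced (squares) and uninduced (circles) cells. Ringed points are annotated C2orf48. In RRM1 and PRIM1 the brighter probe sets had the lower changes, down to -5.40 in induced and -5.50 in uninduced cells for PRIM1, whereas the brightest probe set of RPA1 and that of POLD1 lie above 0 in both kinds of cell.

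With the 3 brightest probe sets of each gene in place of all kept ones, 28 of the 46 genes fell and 2 rose in induced cells, against 16.6% and 26.9% of all genes. In uninduced cells 32 fell and 2 rose, against 24.8% and 16.4%. Block-normalised, 32 fell and 2 rose in each kind of cell, against 20.4% and 32.1% of all genes in induced and 25.8% and 30.6% in uninduced cells. The 2 that rose were POLD1 and RPA2 in both, by 1.42 and 1.22 in induced and by 1.31 and 1.67 in uninduced cells (limma adjusted p from 0.000443 to 0.00846). POLD1 and RPA2 also rose under this summary after block normalisation, by 1.35 to 1.64. This summary was added after the data had been seen.

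Doxycycline induction by itself changed none of the 46 genes past the threshold. Without Xrn1, 0 fell and 0 rose between induced and uninduced cells (limma, Benjamini-Hochberg), where 0.0296% of all genes fell and 0.0118% rose as deposited and 0.0% either way block-normalised. At an unadjusted p under 0.05, 20 fell and 0 rose as deposited and 5 fell and 0 rose block-normalised. The share of all genes at that unadjusted p was not counted. The median change was -0.59 as deposited and -0.31 block-normalised, compared with -0.35 and -0.16 for all genes. Groups did not overlap, with induced cells lower, for 15 genes as deposited (17.4% of all genes) and 6 block-normalised (8.83%). With induced cells higher there were 0 by either set (5.82% and 1.11% of all genes). Among the 20 were GINS2 (-1.16), GINS3 (-1.07) and DUT (-1.27), all in block B, whose block-normalised values were -0.69, -0.48 and -0.74 (limma adjusted p = 0.531 for each). When induced untreated replicate 3 was left out, 19 of the 46 fell as deposited and 0 after block normalisation. The median of all genes was then -0.58 as deposited and -0.25 block-normalised, and the share of all genes called was not counted.

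With Xrn1, again 0 fell and 0 rose between induced and uninduced cells (limma, Benjamini-Hochberg), where 0.00592% and 0.0533% of all genes were called as deposited and 0.00592% and 0.0711% block-normalised. At an unadjusted p under 0.05, 0 fell and 6 rose as deposited, and 0 and 1 (POLD2, 0.53) block-normalised. Again no count over all genes was made at that p. Groups did not overlap, with induced cells higher, for 13 genes as deposited (31.3% of all genes) and 10 block-normalised (18.1%), and with induced cells lower for 0 (3.13%) and 1 (2.32%). The median was 0.27 as deposited and 0.14 block-normalised, close to 0.28 and 0.10 for all genes. PRIM1, for example, averaged 3.36 ± 0.33 in induced and 2.99 ± 0.24 in uninduced Xrn1-treated RNA (SD, n = 3 each).

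Whether the Xrn1 change itself differed with induction was tested as the interaction, the Xrn1 change in induced minus that in uninduced cells. As deposited, 15 of the 46 genes had a positive difference past the threshold and 0 a negative one, against 20.6% and 1.23% of all genes. They were MCM5, CDT1, CDC45, GINS1, GINS2, GINS3, POLA2, POLD1, POLD3, POLE, POLE2, POLE3, RPA1, LIG1 and DUT, with differences from 1.27 to 1.89 (SE 0.48). All 15 lie wholly in block B, where they are 15 of 24, and 0 of the 18 genes of block A passed. The count was 0 without induced Xrn1 replicate 1 or 3, induced untreated replicate 1 or uninduced Xrn1 replicate 2. It was 4 without uninduced untreated replicate 3, 7 without induced Xrn1 replicate 2 or uninduced Xrn1 replicate 3 and 8 without induced untreated replicate 2. Shares of all genes were not counted for these left-out arrays. Over all genes, 3413 of 9278 in block B and 2 of 7077 in block A were positive past the threshold.

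After block normalisation, 0 of the 46 genes passed in either direction (limma, Benjamini-Hochberg), with 0.101% of all genes positive and 0.00592% negative. At an unadjusted p under 0.05, 11 were positive and 0 negative, with no count over all genes at that p. The block-normalised differences ran from -0.01 (GINS4) to 1.02 (GINS2), with a median of 0.41, against 0.25 for all genes. The widest were GINS2 (1.02, 95% interval 0.39 to 1.64), POLD2 (0.89, 0.38 to 1.39), GINS3 (0.84, 0.31 to 1.38) and DUT (0.84, 0.25 to 1.43), with adjusted p from 0.136 to 0.195. Across the 46 genes the Xrn1 changes in induced and uninduced cells, which rest on different arrays, had a correlation across genes of 0.55 as deposited and 0.94 block-normalised. Over all genes it was 0.60 and 0.91, so this is not particular to the replication genes.

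**Figure D5:**
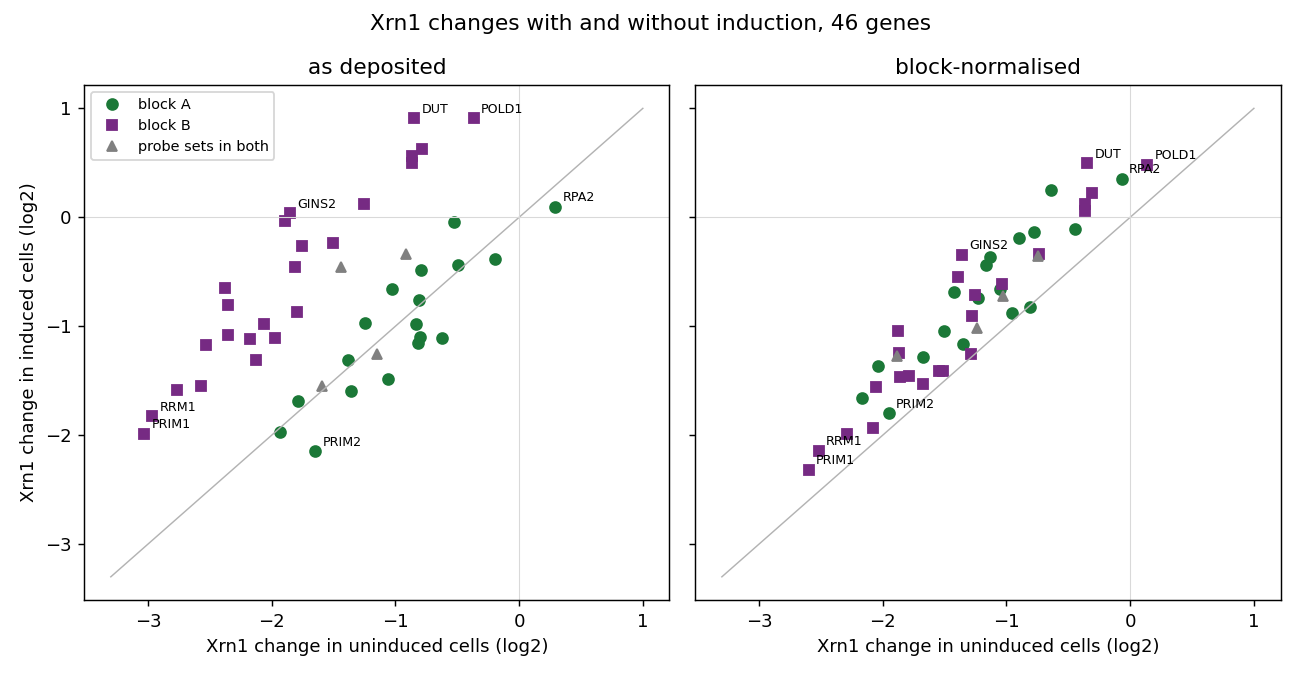
Change with Xrn1 in induced cells against that in uninduced cells (log2) for the 46 genes, as deposited (left) and block-normalised (right), marked by block. The line marks equal changes. As deposited, the genes of block B lie above those of block A (interaction medians 1.31 and -0.09), and after block normalisation both lie along one band (0.40 and 0.47).

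Other genes of replication and S phase, a list of 45 of which 43 could be tested, were counted in the same way. As deposited 18 fell and 6 rose in induced cells (17.8% and 21.6% of all genes), and 30 fell and 0 rose in uninduced cells (31.8% and 7.24%). Block-normalised these were 29 and 6 (25.4% and 24.0%), and 34 and 2 (37.3% and 16.1%). The smallest p in uninduced cells as deposited belonged to TOP2A, the topoisomerase that untangles daughter strands, WDHD1, an adaptor between helicase and polymerase alpha, and RRM2B, another ribonucleotide reductase subunit. Block-normalised, TOP2A changed by -2.52 in induced and -2.61 in uninduced cells, WDHD1 by -2.34 and -2.55, and RRM2B by -2.03 and -2.26. CHTF18, part of an alternative clamp loader, and POLD4, the small subunit of polymerase delta, were the 2 that rose in both comparisons after block normalisation, by 0.66 and 0.80 in induced and by 0.65 and 0.48 in uninduced cells, and are named here after their values were seen. The interaction was positive past the threshold for 16 of the 43 as deposited (20.6% of all genes) and for 0 after block normalisation (0.101%), and negative for 0 with either set of values (1.23% and 0.00592%).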

How the data were processed

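Each of the 12 exon arrays was deposited as log2 values per probe set, for which the submitters' processing notes name RMA and oligo. No version is given in the sources used here. Of 1411399 probe sets, 357604 carry 1 symbol, and 16472 symbols were current, 2966 were updated and 122 kept. Probe sets above the 12-array median (2.04) were averaged per gene, and 16883 genes with at least 3 were fitted with limma 3.58.1 in R 4.3.3 (4 group means, eBayes, Benjamini-Hochberg over all genes, threshold 0.05). With 8 residual degrees of freedom, limma gave every gene the common SD of 0.418, so the SE was 0.34 for a simple comparison and 0.48 for the interaction. After block normalisation the SDs ran from 0.199 to 0.657. The number of arrays limits the precision. Any of the 46 genes could be named, and within each role those with the smallest and largest p as deposited were given on all arrays. The genes and lists were chosen with earlier results of these data known. The title of 1 induced Xrn1 array repeats replicate number 2, and it was taken as replicate 1. By their titles, an untreated array and an Xrn1 array share each sample number, and the main fit did not use this pairing. As deposited, the deviations of arrays with the same sample number correlated between -0.71 and 0.13. These deviations hold the step between the blocks and were not computed after block normalisation. They cannot show whether the samples are paired. Alternatives were other probe set filters and summaries, other normalisations, each gene's own spread, only the groups compared, a replicate block and left-out arrays.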

Additional observations from a re-analysis of the deposited data

Results flagged for a closer look

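A difference in the Xrn1 change between induced and uninduced cells, past the threshold of the interaction test as deposited, drew attention to 15 genes. The difference, induced minus uninduced, was 1.27 for MCM5, 1.27 for GINS1 and 1.27 for POLD1. It was 1.35 for POLD3, 1.36 for RPA1, 1.37 for POLE and 1.37 for LIG1. It was 1.41 for POLE3, 1.43 for CDT1, 1.49 for CDC45 and 1.54 for POLA2. The widest were 1.73 for POLE2, 1.76 for DUT, 1.86 for GINS3 and 1.89 for GINS2. All 15 lie in block B of the deposited table. After normalisation within each block, 0 of the 46 genes passed this test (limma, Benjamini-Hochberg). There 11 had an unadjusted p under 0.05, and the share of all genes at that p was not counted.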

How the results depend on the processing

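In uninduced cells 23 genes fell under cyclic loess, against 38 as reported, and the count rose to 39 under block normalisation. Genes that rose there numbered 1 under cyclic loess and 2 with the 3 brightest probe sets (as deposited and block-normalised) or with loess after block normalisation. In induced cells 6 fell with each gene's own spread, against 25. Leaving out 1 array gave 26 to 42 in uninduced and 14 to 28 in induced cells as deposited, and 38 to 40 and 27 to 33 block-normalised. The 14 came without induced untreated replicate 2 and 16 without induced Xrn1 replicate 2. Shares of all genes called were counted for the reported fit and for block normalisation. Under cyclic loess and with the 3 brightest probe sets they were counted for the Xrn1 comparisons only. They were not counted for left-out arrays, own spread or any other setting, here and in the other comparisons.

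The 2 rises in induced cells (POLD1, DUT) were less stable. The count was 1 with the median of the probe sets, without the filter, with own spread after block normalisation and without both arrays of uninduced replicate 2 after block normalisation. It was 0 with own spread, and 0 to 5 over left-out arrays (0 to 2 block-normalised), the 5 without induced untreated replicate 3. For induction without Xrn1, left-out arrays gave 0 to 19 lower genes as deposited and 0 block-normalised. For induction with Xrn1, 5 genes were higher as deposited when only both groups compared were fitted. The share of all genes called there was not counted. The median change in that fit was 0.27 for the 46 genes and 0.28 for all genes.

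The 15 interaction calls were 8 with the median of the probe sets, 6 above the upper quartile, 8 with 1 kept probe set, 4 with centred arrays and 2 under cyclic loess. In these settings the share of all genes called in the interaction was not counted. They were 0 with own spread, without both arrays of uninduced replicate 2, with the 3 brightest probe sets, and in these and all other settings that were run after block normalisation, except 1 when induced untreated replicate 2 was left out. Over left-out arrays they were 0 to 22 as deposited and 0 to 1 block-normalised. They were 0 without induced Xrn1 replicate 1, induced Xrn1 replicate 3, induced untreated replicate 1 or uninduced Xrn1 replicate 2.

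A further fit of the deposited values took the sample number as a block for the Xrn1 comparisons and the interaction. For induction it took the replicate number. In this fit 23 genes fell and 0 rose in induced cells, and 31 fell and 0 rose in uninduced cells. For induction and the interaction, 0 passed. Shares of all genes called in this fit were not counted.

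Where a gene passed the threshold in the reported fit or in the alternative, its sign turned in these cases, given as log2 changes. Under cyclic loess in uninduced cells MCM3 had 0.12, MCM7 0.18, CDT1 0.075, POLD2 0.82, FEN1 0.31 and RRM2 0.086. Loess after block normalisation gave POLD2 0.84 and POLE -0.39 in induced cells, CDT1 0.34, POLD1 0.74, POLD2 0.46, FEN1 0.23 and LIG1 0.21 in uninduced cells, and for the interaction MCM5 -0.063, GINS1 -0.010, POLD1 -0.10 and LIG1 -0.01. The 3 brightest probe sets gave POLA1 0.16 and RPA1 0.31 in induced cells and POLD1 1.31 in uninduced cells. Block-normalised, they gave GINS2 -0.81, POLE3 -0.75 and RPA1 0.21 in induced cells, CDT1 0.13, POLA1 0.22, POLD1 1.64, RPA1 0.24 and DUT 0.34 in uninduced cells, and for the interaction MCM5 -0.11, CDT1 -0.034, POLD1 -0.29, POLE -0.53, POLE3 -0.26 and RPA1 -0.029. The cause was not tested in any of these cases. With 3 arrays a group and an SE of 0.34 as deposited, small changes could not be told from 0.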

Other observations

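A CCAAT box (CCAAT on either strand) stood in 23 of the 40 replication genes with a RefSeq promoter window (57.5%), against 42.14% of the tested genes with a window. It stood in 17 of 27 genes that fell with Xrn1 in both comparisons after block normalisation, in 6 of 8 that fell in 1, and in 0 of the 5 that fell in neither (CDT1, DUT, LIG1, POLD1 and POLE3). These counts were looked at after the calls were known and carry no test.

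The gene of the helicase group with the lowest deposited interaction value was GINS4 (-0.48), the only GINS gene in block A, while GINS1, GINS2 and GINS3, in block B, had 1.27, 1.89 and 1.86. After block normalisation the 4 values were -0.01, 0.39, 1.02 and 0.84.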
